A study of Homo sapiens with 36 samples.

Results

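RNA recovered with endogenous YTHDF2 was compared with input RNA in HEK293T, a cell line from human embryonic kidney, carrying the YTHDF1-ADAR fusion. The comparison rests on 6 of the 36 libraries of the series, chosen by their labels: 3 libraries from RNA immunoprecipitation (RIP) with the YTHDF2 antibody [EPR23544-19] and 3 input libraries made from lysate of the same line with no antibody. Both groups had been treated with doxycycline at 1 µg/mL for 24 h to induce the fusion. Input and RIP therefore both come from cells that make YTHDF1-ADAR, and no RIP with a control antibody was analysed here. The other 30 libraries hold RIPs with YTHDF1 and YTHDF3 antibodies in this line and the same 4 kinds of library in lines with YTHDF2-ADAR or YTHDF3-ADAR. The sources used here do not say whether the line is a single clone, what promoter drives the fusion, or whether replicates are separate cultures. The p-values therefore measure only the spread between libraries of a group, which the model estimates from all 36 libraries in 12 groups.

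YTHDF2 is a cytoplasmic protein whose YTH domain holds N6-methyladenosine (m6A), a methyl mark that the METTL3-METTL14 complex places on mRNA, mostly in long internal exons and near the stop codon. It is best known for bringing the CCR4-NOT deadenylase to methylated mRNAs, which shortens their life, and YTHDF1 and YTHDF3 are close relatives that read the same mark. ADAR enzymes turn adenosine into inosine, read as guanosine in sequencing, so a YTHDF1-ADAR fusion leaves edited positions on RNAs it meets.

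All values below are relative. CPM, the level used for genes, is a count scaled to a library of fixed size after TMM normalisation, and a log2 fold change compares RIP with input as a share of the other RNAs in a library. More of one RNA and less of the others cannot be told apart. Genes are called higher or lower in the RIP where the p of a quasi-likelihood test in edgeR, adjusted by Benjamini-Hochberg over all genes tested, lies under 0.05. Errors of log2 fold changes are standard errors.

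The 6 libraries held 15921450 to 30300222 counts each and differed in the kinds of RNA they held. Protein-coding genes took 90.0, 90.3 and 82.8 percent of counts in RIP replicates 1 to 3 and 72.2, 71.5 and 72.4 percent in the inputs. RIP replicate 3 and input replicate 1 stood apart through miRNA genes, which took 5.97 and 9.41 percent of their counts, against 1.10 and 0.931 percent in the other RIPs and 0.263 and 0.560 percent in the other inputs. Most of this was MIR3648, a hairpin gene in the ribosomal DNA region whose copies MIR3648-1 and MIR3648-2 share reads: they held 4.03 percent of RIP replicate 3 and 5.63 percent of input replicate 1, and 0.107 to 0.684 percent of the other 4 libraries. The mature miRNA is shown because counts at both copies mark the libraries that stand apart. In the RefSeq table MIR3648-2's copy lies at chr21:8987026-8987046 on the plus strand (GRCh38.p14), and capitals mark its seed, bases 2 to 8:
hsa-miR-3648: aGCCGCGGggaucgccgaggg
The counts cover the whole gene and not only these bases. Main results are therefore given again without RIP replicate 3 and input replicate 1, which leaves 2 libraries a group and assumes that they vary like the other groups of the model.

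**Figure D1:**
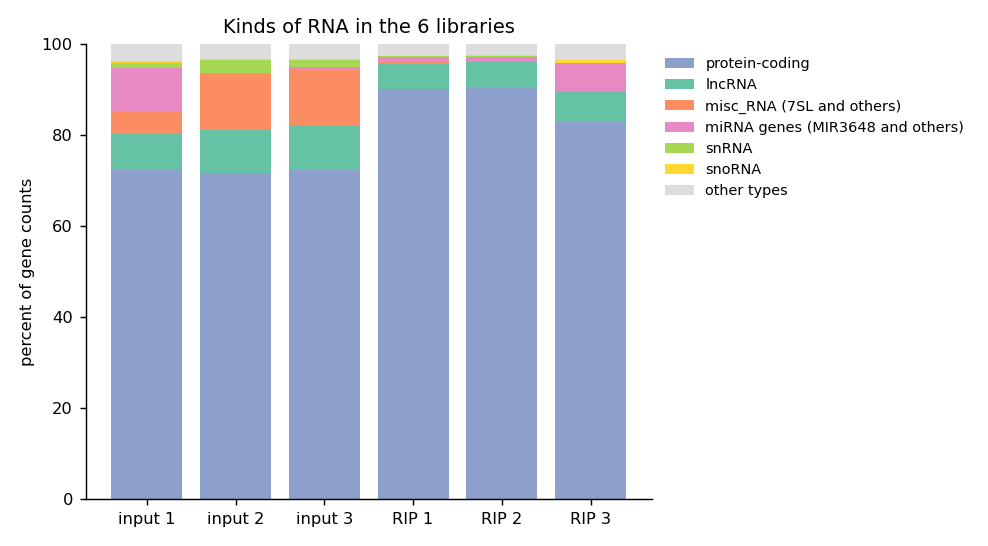
Percent of gene counts (y axis, 0 to 100) taken by each kind of RNA in the 3 inputs and the 3 YTHDF2 RIPs (x axis, 1 bar a library). The misc_RNA class shrinks in every RIP, from 4.98, 12.3 and 12.3 percent to 0.402, 0.261 and 0.299 percent, while the miRNA class is wide in input 1 and RIP 3 alone.

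NEFL and NEFM, neurofilament genes that HEK293 cells express, lay at 547 and 1410 CPM on average in the inputs, and LIN28B at 85.1. The remaining HEK293-like markers, PAX2 and EMX2, were low there, at 5.75 and 5.07 CPM. Among markers of other cells, PTPRC and HBB of blood and KRT5 of keratinocytes were at 0 in all 6 libraries and COL1A2 of fibroblasts in all inputs. The 6 blood markers summed to 7.48 CPM on average in the inputs. The fibroblast list summed to 23.9 CPM in input and 37.1 in RIP, most of it COL1A1 (21.7 and 32.7 CPM), whose part in the results was not tested.

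Relative to input, 2757 genes were higher in YTHDF2 RIP and 4919 were lower, of 31849 genes with enough counts to test. These are 8.66 percent called higher and 15.4 percent called lower, or 24.1 percent in all, the background over all genes. Most gene lists below hold protein-coding genes, of which 14.3 percent were higher and 22.0 percent lower. Lists of such genes are to be read beside these shares as well. Protein-coding genes made up 50.1 percent of the genes tested, 82.8 percent of those higher and 71.3 percent of those lower. Losses were larger than gains: 2435 of the lower genes and 438 of the higher genes differed by at least 2-fold, and 614 and 28 by at least 4-fold. Of the 31849 genes tested, the values of the 3 RIPs and the 3 inputs did not overlap for 3309 on the higher and 5945 on the lower side.

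The balance of higher to lower genes depended on how libraries were scaled. By TMM the median gene lay at -0.11, so a gene with no change relative to the bulk lies slightly under 0. DESeq2's size factors put that median at 0.01 and the split at 3748 higher and 3992 lower, total counts at 0.09 and 4422 to 3248, and the upper quartile at 0.14 and 5088 to 3189. Single inputs weighed on the lower side as well, with 3264 genes lower without input replicate 2 and 2939 without input replicate 3.

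Without RIP replicate 3 and input replicate 1, 3100 genes were higher (9.42 percent of 32895 tested) and 4402 lower (13.4 percent). Of the genes first called higher, 2230 were called higher again, and 3963 of those called lower were called lower again. None of the calls turned round (0 genes called in opposite directions), 527 higher and 956 lower calls were lost, and 868 and 424 new ones were made among the same genes.

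The mRNAs most enriched with YTHDF2 encoded proteins of many kinds. The 14 highest by rule (called, at a mean log2 CPM of 4 or more, RIP and input values apart, and called again without the 2 libraries) rose 2.90-fold to 4.34-fold. MRFAP1, a MORF4 family-associated nuclear protein (ENSG00000179010, GRCh38 chr4:6640091-6642745, a single merged exon), stood at 1163, 805 and 1200 CPM in the RIPs and at 169, 281 and 280 CPM in the inputs. Its lowest RIP value lay well above its highest input value, and the log2 fold change was 2.12 ± 0.28 (adjusted p = 5.21e-07, edgeR), or 1.80 without the 2 libraries. MRFAP1L1, its near copy, was higher by 1.56 ± 0.26 but by 0.98 without the 2 libraries, with RIP replicate 3 at 204 CPM against 121 and 96.7 in the others. Reads that fit both copies were counted for each, so the pair is not 2 independent results.

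PSMD2, a scaffold subunit of the regulatory particle of the proteasome, stood at 675, 498 and 642 CPM in the RIPs and at 142, 175 and 182 in the inputs. Its groups were far apart, with a log2 fold change of 1.87 ± 0.21 (adjusted p = 1.60e-08, edgeR; 1.71 without the 2 libraries). WDR6, a WD-repeat protein that helps to methylate tRNA, stood at 868, 731 and 519 CPM against 202, 230 and 211. Here RIP replicate 3 was the lowest RIP, and leaving it and input replicate 1 out raised the log2 fold change from 1.72 ± 0.19 to 1.85.

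TARDBP, which encodes the RNA-binding protein TDP-43, stood at 667, 562 and 486 CPM in the RIPs and at 154, 226 and 187 in the inputs (1.60 ± 0.26, adjusted p = 1.24e-05, edgeR). HNRNPM, a nuclear splicing factor, was the most abundant of the 14, at 1291, 1424 and 963 CPM against 343, 480 and 445 (1.53 ± 0.31). Both encode RNA-binding proteins. The naming rule required RIP and input values that do not overlap, so their lack of overlap is no separate result for any of the 14. THOC3, a subunit of the mRNA export complex THO, was higher by 1.68 ± 0.22, with RIP replicate 3 highest at 620 CPM, and by 1.30 without the 2 libraries. The remaining 8 were F11R (a junctional adhesion molecule, 1.71), COPRS (a partner of the arginine methyltransferase PRMT5, 1.69), ZNF778 (a zinc finger protein, 1.62), DIRAS1 (a small GTPase, 1.59), METTL13 (a methyltransferase of the elongation factor eEF1A, 1.59), LRP2 (the endocytic receptor megalin, 1.55), SLC18B1 (a polyamine transporter, 1.54) and MRFAP1L1 given above. LRP2 was also the one kidney tubule marker over 1 CPM in input, at 43.5 CPM in input and 128 in RIP.

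The mRNAs least recovered encoded small proteins of ribosomes and mitochondria, and they fell by more than the top mRNAs rose. The 14 lowest by the same rule were lower by 6.84-fold to 13.6-fold. Of these, 5 encode ribosomal proteins (RPS21, RPS13, RPS12, RPS28 and RPL35A) and 6 encode subunits of the respiratory chain or ATP synthase (COX7A2, COX6A1, COX5B, NDUFA1, NDUFB11 and ATP5F1E). RPS21 (ENSG00000171858) stood at 15.2, 14.2 and 9.63 CPM in the RIPs and at 149, 162 and 222 in the inputs, a log2 fold change of -3.77 ± 0.25 (adjusted p = 6.77e-13, edgeR; -3.72 without the 2 libraries). COX7A2, a small subunit of cytochrome c oxidase, stood at 6.36, 6.11 and 4.50 CPM against 47.9, 59.0 and 82.3 (-3.47 ± 0.21). For both, every RIP value lay far under every input value.

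TXN (thioredoxin), MIF (a cytokine) and UBL5 (a ubiquitin-like splicing regulator) were the other members, at -3.41 ± 0.20, -3.41 ± 0.32 and -3.18 ± 0.24. MIF stood at 28.6, 29.9 and 13.1 CPM in the RIPs and at 177, 270 and 318 in the inputs. RIP replicate 3 held the lowest value of 13 of the 14 lowest mRNAs, ATP5F1E being the exception. The inputs lay above every RIP for each of the 14, which the naming rule required. Many ribosomal protein genes have processed pseudogenes, and reads that fit several places were counted at each, so the level of one such gene is uncertain.

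**Figure D2:**
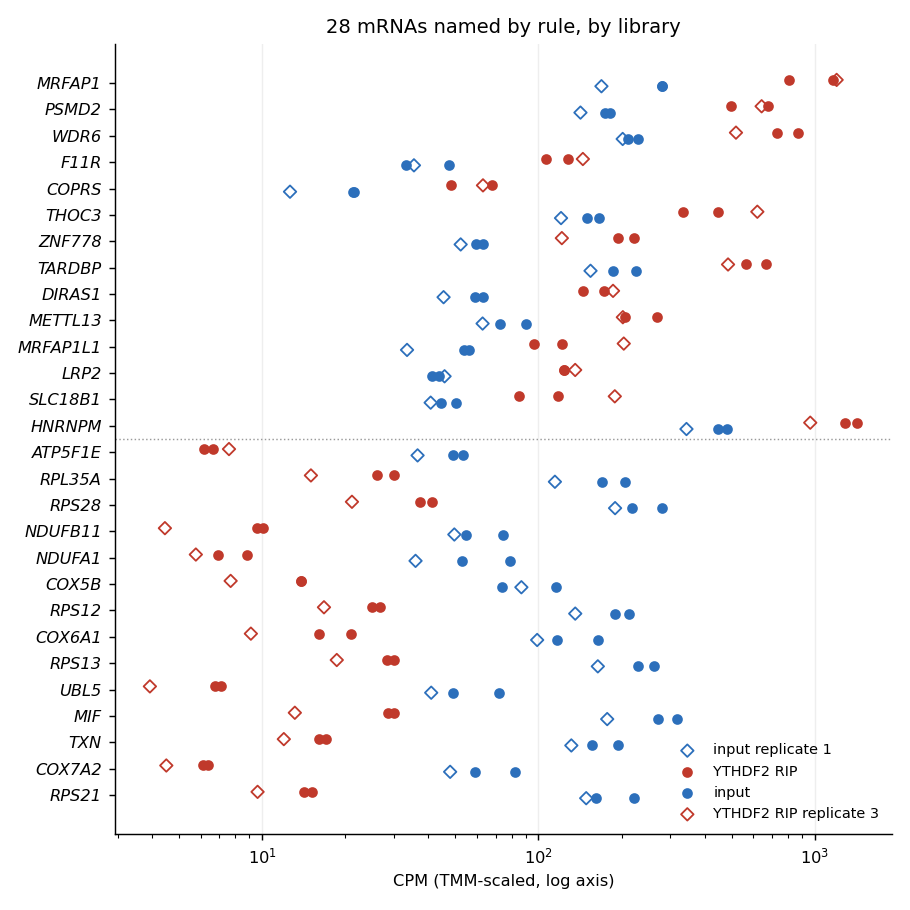
CPM after TMM scaling (x axis, log scale) of the 28 mRNAs named by rule, 14 higher and 14 lower, in each of the 6 libraries. Red marks YTHDF2 RIP and blue input, and open diamonds mark RIP replicate 3 and input replicate 1. Red and blue points are apart on every line, which the naming rule required. RPS21 lies at 9.63 to 15.2 CPM in the RIPs and at 149 to 222 CPM in the inputs.

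Many ribosomal protein mRNAs begin with a terminal oligopyrimidine (TOP) motif, a C followed by a run of C and T at the cap that ties their translation to growth signals. The first 24 transcribed bases are printed for lower and higher mRNAs to show where such runs fall. They come from RefSeq transcript starts (GRCh38.p14), and capitals mark a run of C and T of at least 5 bases from the first base:
RPS21: CCTTTCTCTCTCgcgcgcggtgtg
RPS12: CTCTTTCCCTgccgccgccgagtc
RPL35A: CTTCTCTTaccgccatcttggctc
RPS13: CCTTTCgttgcctgatcgccgcca
ATP5F1E: CTTCCTgcggctgaaccgcccggc
RPS28: actcctctccgccagaccgccgcc
TXN: gaagctctgtttggtgctttggat
MIF: agtggtgtccgagaagtcaggcac
WDR6: CCCTTCTTagccgtggctgcctca
MRFAP1: attttgttcgccgttactctgcgc
TARDBP: attttgtgggagcgaagcggtggc
These stretches lie at chr20:62387103-62387126 (RPS21), chr6:132814569-132814592 (RPS12), chr3:197950190-197950213 (RPL35A), chr3:49007391-49007414 (WDR6) and chr4:6640685-6640708 (MRFAP1). WDR6, among the most enriched mRNAs, starts with a run, and TXN and MIF, among the least recovered, do not. RPS28, also among the least recovered, has a run of C and T right after its first base, which was not marked.

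The run was common at the start of ribosomal protein genes, and those with and without it had close medians. It began 48 of the 68 ribosomal protein genes with a RefSeq window and 5.17 percent of all 35116 windows. Ribosomal protein genes with the run had 45 of 48 lower (median -1.94), and those without it 15 of 20 lower (median -1.84). Among other protein-coding genes, 112 of 851 with the run were higher and 223 lower (median -0.16), beside 1686 and 2470 of 11408 without it (median -0.09). The search used this one strand and the annotated start, so a run that begins away from that start, as in RPS28, was not counted.

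Of 86 cytosolic ribosomal protein genes tested (88 in the table), 75 were lower and 0 higher, with a median of -1.74 beside -0.11 for all genes. The RIPs lay under every input for 71 of the 86, beside 5945 of all 31849 genes tested. Their summed counts took 1.46, 1.77 and 0.968 percent of the RIP libraries and 2.91, 3.08 and 3.78 percent of the inputs, so no RIP reached the lowest input. Beyond the genes above, RPL34 lay at -2.60 ± 0.19. The list was not uniform: RPL3 (-0.11) and RPL5 (-0.37), chosen here after their values were seen, were among the 11 not called. Without the 2 libraries 73 were lower and the median was -1.72.

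Nuclear-encoded genes of oxidative phosphorylation had 67 lower and 5 higher of 81 (median -1.60; 65 and 3 without the 2 libraries). COX7B lay at -3.11 ± 0.22, ATP5F1E at -2.77 ± 0.19 and COX5B at -2.96 ± 0.21. Among the 5 that rose were ATP5F1A (1.28), SDHA (1.07), ATP5F1B (0.95) and UQCRFS1 (0.69), named after their values were seen. ATP5F1A and ATP5F1B encode the catalytic ring of ATP synthase, SDHA the flavoprotein of complex II and UQCRFS1 the Rieske iron-sulfur protein of complex III. The summed share of the list overlapped between the groups, at 0.519, 0.403 and 0.503 percent of the RIPs against 0.501, 0.526 and 0.629 percent of the inputs.

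Mitochondrial ribosomal proteins, which build the ribosome inside mitochondria, had 60 of 78 lower and 0 higher (median -0.94), with MRPL13 at -2.23 ± 0.19 and MRPS14 at -1.80 ± 0.16. The 13 mRNAs encoded in mitochondrial DNA, which cytoplasmic proteins do not meet in the living cell, had 0 called in either direction (median -0.62 by TMM, 0.06 when libraries were scaled to these mRNAs themselves), with MT-CO1 at -0.97 ± 0.39 (adjusted p = 0.0719, edgeR). Their libraries were spread widely, with 1.06, 1.01 and 0.561 percent of counts in the RIPs and 0.663, 1.58 and 1.30 percent in the inputs. Those ranges overlap.

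Replication-dependent histone genes, whose mRNAs end in a stem-loop in place of a poly(A) tail, had 34 of 55 lower and 0 higher (median -1.37; 29 lower without the 2 libraries). H4C9 lay at -2.10 ± 0.22 and H2AC20 at -2.65 ± 0.29. Histone genes are near copies of one another and share reads. Of 50 genes of the secretory pathway and translocon, 28 were lower and 6 higher (median -0.55, or 0.04 under mitochondrial scaling; 29 and 3 without the 2 libraries), with the small membrane proteins OST4 (-2.77 ± 0.23) and SEC61G (-2.65 ± 0.26) and the signal recognition particle protein SRP9 (-1.78 ± 0.18) among the lower. snoRNA host genes, spliced noncoding RNAs whose introns carry snoRNAs, had 18 of 29 lower and 0 higher (median -0.74), with SNHG5 at -1.61 ± 0.21. All 8 mRNAs that m6A studies use as weakly methylated controls were lower (median -1.97), among them GAPDH (-1.98 ± 0.26), B2M (-2.03 ± 0.21) and HPRT1 (-1.003 ± 0.20); 5 of the 8 are ribosomal protein genes and so repeat the first list.

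On the higher side stood long mRNAs of chromatin proteins. Of 53 chromatin and transcription coregulators, 36 were higher and 0 lower (median 0.54; 38 higher and a median of 0.68 without the 2 libraries). Their share of counts was 1.34, 1.61 and 1.21 percent in the RIPs and 0.871, 0.760 and 0.742 percent in the inputs, with no overlap. The demethylases KDM5A (0.94 ± 0.14) and KDM3B (0.87 ± 0.14), the methyltransferase NSD1 (0.92 ± 0.15) and the methylcytosine oxidase TET3 (0.85 ± 0.14) were called with the smallest p. CREBBP, an acetyltransferase, stood at 245, 382 and 185 CPM in the RIPs and at 153, 189 and 159 in the inputs, so that RIP replicate 3 fell within the inputs' range (0.70 ± 0.18; 0.84 without the 2 libraries). The median exon length of this list was 12713 bases, beside 3159 for cytosolic ribosomal protein genes.

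The Wnt pathway had 15 higher and 3 lower of 49 (median 0.18). CTNNB1, which encodes beta-catenin, lay at 1.19 ± 0.21, the co-receptor LRP6 at 0.77 ± 0.12 and the feedback inhibitor AXIN2 at 0.76 ± 0.14. Of 10 frizzled receptors, taken from this list after its values were seen, 6 were higher and 0 lower, led by FZD8 (1.15) and FZD10 (1.07). KLHL and F-box adaptors of ubiquitin ligases had 26 higher and 13 lower of 89 (median 0.08), with FBXO45 at 1.47 ± 0.17 and FBXO8 at -1.37 ± 0.19. Among KLF, SOX, FOX and HOX transcription factors 11 were higher and 14 lower of 107 (median -0.06, or 0.12 by total counts). These are 10.3 and 13.1 percent, close to the shares of all genes but under the 14.3 and 22.0 percent of protein-coding genes. KLF13 (1.29 ± 0.15) and FOXO1 (0.95 ± 0.14) were higher. ZNF genes went both ways, with 74 higher and 82 lower of 453 (16.3 and 18.1 percent, median 0.00, or 0.19 by total counts). ZNF740 (0.94 ± 0.10) and ZNF212 (1.30 ± 0.18) were among the higher.

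Messages known to carry m6A were mixed. Of 23 such mRNAs chosen from the literature, 9 were higher and 3 lower (median 0.26). These are 39.1 and 13.0 percent, beside 8.66 and 15.4 percent of all genes and 14.3 and 22.0 percent of protein-coding genes. SON, a splicing cofactor, stood at 981, 1333 and 507 CPM in the RIPs and at 568, 665 and 543 in the inputs. For SON, RIP replicate 3 lay under all 3 inputs while the other RIPs lay above them, and the log2 fold change rose from 0.67 ± 0.20 to 0.92 without the 2 libraries. The apoptosis regulator BCL2 lay at 0.65 ± 0.13 and JUN at 0.82 ± 0.19, while ATF4, a stress-response factor with upstream reading frames, was lower at -1.13 ± 0.22. MYC stood at 372, 410 and 204 CPM in the RIPs against 217, 313 and 272, groups that overlap, and was not called (0.30 ± 0.17, adjusted p = 0.240, edgeR).

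The m6A machinery itself split. Among 11 genes of the writer group 4 were higher and 2 lower (median -0.25, or -0.04 by total counts and 0.33 under mitochondrial scaling): METTL16 (1.03 ± 0.16), RBM15B (0.74 ± 0.18) and RBM15 (0.57 ± 0.13) were higher, and ZCCHC4, which methylates ribosomal RNA, was lower (-0.97 ± 0.22). METTL3, the catalytic subunit, was lower by all 6 libraries (-0.56 ± 0.14, adjusted p = 0.00327, edgeR) but not without the 2 (-0.42, adjusted p = 0.0546), and METTL14 was not called (-0.36 ± 0.15, adjusted p = 0.0688). Among 14 erasers and readers 4 were higher and 2 lower (median 0.24; 2 and 2 without the 2 libraries). YTHDF2 mRNA stood at 277, 257 and 305 CPM in the RIPs and at 131, 176 and 155 in the inputs (0.86 ± 0.18; 0.68 without the 2 libraries), with no overlap.

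YTHDF1, the gene that the fusion carries, stood at 1239, 1360 and 791 CPM in the RIPs and at 529, 721 and 652 in the inputs (0.83 ± 0.19). Counts do not separate the fusion's message from that of the endogenous gene. ADARB1, the ADAR2 gene, was higher by 0.75 ± 0.19 and ADAR by 0.62 ± 0.16, and YTHDF3 was not called (0.27 ± 0.17, adjusted p = 0.278, edgeR).

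Proteins of mRNA decay and storage split by gene. Of 36 CCR4-NOT and P-body genes 11 were higher and 9 lower (median 0.01). The decapping activator EDC3 (0.84 ± 0.14) and LSM14B (0.72 ± 0.12) were higher, and the deadenylase CNOT7 (-1.18 ± 0.15) and LSM1 (-1.68 ± 0.16) were lower. Stress granule genes had 3 higher and 1 lower of 18 (median -0.08, or 0.13 by total counts; 3 and 2 without the 2 libraries), with FXR2 at 0.60 ± 0.14 and the poly(A)-binding protein PABPC1 at -0.74 ± 0.18. Immediate-early genes had 6 higher and 3 lower of 30 (median 0.18), led by DUSP5 (1.25 ± 0.27) and IER2 (1.25 ± 0.17).

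**Figure D3:**
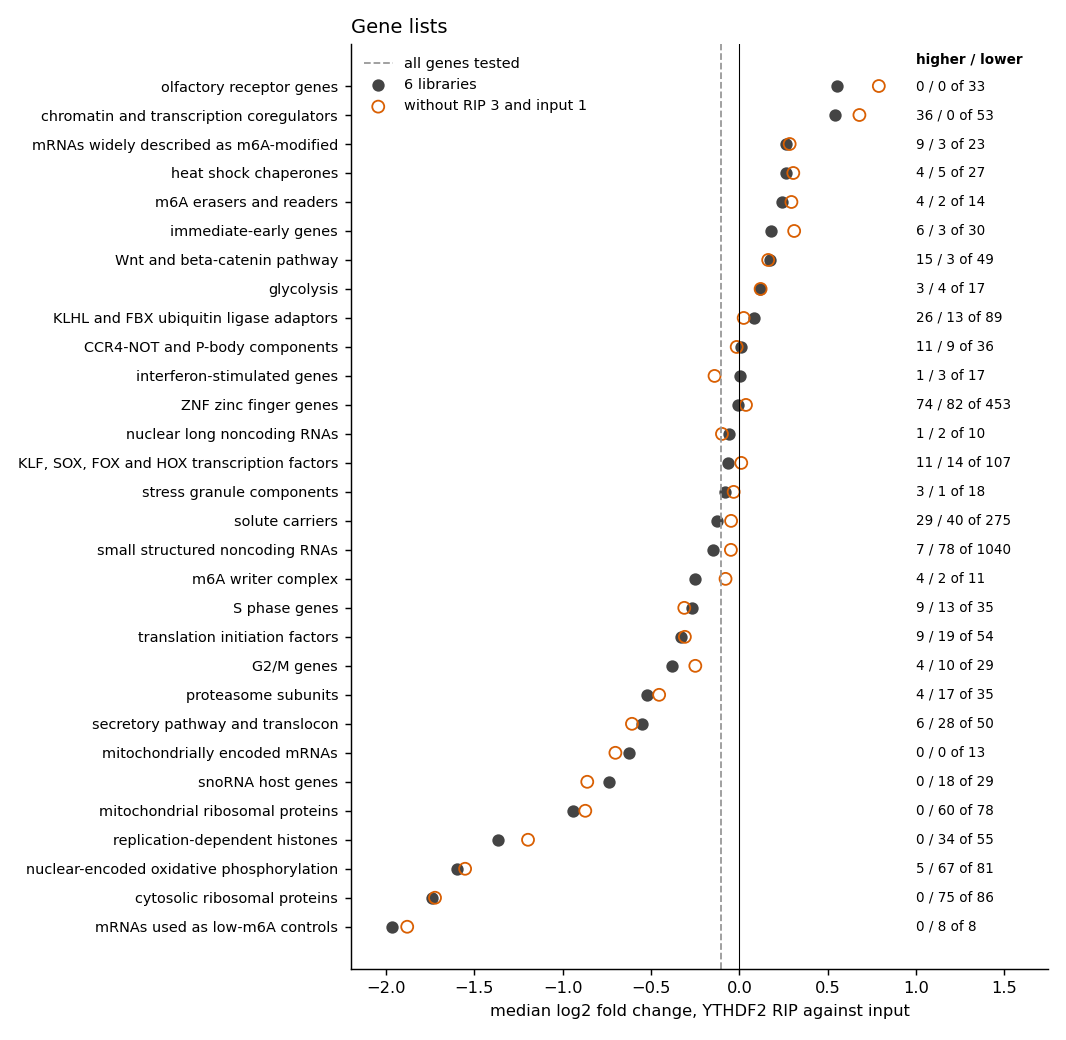
Median log2 fold change of YTHDF2 RIP against input (x axis) for 30 gene lists (y axis), in all 6 libraries (filled) and without RIP replicate 3 and input replicate 1 (open). The dashed line is the median of all genes tested, -0.11, and the numbers at the right are members called higher and lower of those tested. Low-m6A controls (-1.97), ribosomal proteins (-1.74) and oxidative phosphorylation (-1.60) lie farthest left, and of lists with called members the chromatin coregulators (0.54) lie farthest right.

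Within single protein complexes, members were recovered unequally. Proteasome subunits had 4 higher and 17 lower of 35 (median -0.52, or 0.07 under mitochondrial scaling). Split by their place in the particle after values were seen, the 15 genes of the 20S core had 0 higher and 11 lower (median -1.07), and the 20 of the 19S regulatory particle 4 higher and 6 lower (median -0.16), or 2 and 4 without the 2 libraries. PSMB3, a core subunit, lay at -2.70 ± 0.27 and PSMB4 at -1.59 ± 0.16, against PSMD2 at 1.87. The difference between the 2 groups of subunits was not tested.

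Translation initiation factors had 9 higher and 19 lower of 54 (median -0.33, or 0.33 under mitochondrial scaling). Within eIF3, the scaffold that loads mRNA on the small ribosomal subunit, EIF3B (1.37) and EIF3A (1.05) were higher, while EIF3G, EIF3F, EIF3K, EIF3E, EIF3I (-1.78 ± 0.18) and EIF3H (-1.82 ± 0.25) were lower, which makes 2 and 6 of 13. This complex and those that follow were picked out after values were seen. EIF4EBP1, the repressor of cap binding, lay at -1.91 ± 0.25. S phase genes showed a like split, with 9 higher and 13 lower of 35 (median -0.27, or 0.21 under mitochondrial scaling). Of the 6 subunits of the MCM helicase, 4 were higher (MCM6, MCM2, MCM3 and MCM7, 0.56 to 0.96) and MCM4 was lower (-0.43), whereas the clamp PCNA (-1.43 ± 0.17) and its loader subunits RFC5, RFC4 and RFC2 were lower (-1.12, -0.97 and -0.67). Among G2/M genes 4 were higher and 10 lower of 29 (median -0.38, or 0.12 under mitochondrial scaling), with the kinase CDK1 at -1.79 ± 0.20 and the proliferation marker MKI67, picked after its value was seen, at 1.13.

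Metabolic and stress genes followed no single direction. Glycolysis genes had 3 higher and 4 lower of 17 (3 and 1 without the 2 libraries), with the hexokinases HK1 (0.93 ± 0.14) and HK2 (1.002 ± 0.17) higher and GAPDH lower. Solute carriers had 29 higher and 40 lower of 275 (median -0.13, or 0.08 by total counts), with the fatty acid transporter SLC27A6 at 1.36 ± 0.16 and the zinc carrier SLC30A9 at -1.17 ± 0.17. Interferon-stimulated genes had 1 higher and 3 lower of 17, IFI6 lying at -2.03 ± 0.32 and HERC5 at 0.71 ± 0.16. Heat shock chaperones had 4 higher and 5 lower of 27, with the mitochondrial co-chaperonin HSPE1 (-2.63 ± 0.34) and HSPB1 (-2.02 ± 0.22) lower and HSP90AA1 (1.26, picked after its value was seen) higher.

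The inducible HSP70 genes HSPA1A and HSPA1B, near copies that share reads, did not pass the test although they were abundant. HSPA1A stood at 6831, 7803 and 1821 CPM in the RIPs and at 1530, 3506 and 1192 in the inputs, so RIP replicate 3 overlapped the inputs (1.40 ± 0.69, adjusted p = 0.159, edgeR; 1.63 without the 2 libraries, adjusted p = 0.173). Together they took 1.56, 1.70 and 0.497 percent of the RIP counts. They were singled out after their values were seen.

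7SL RNA was depleted in the YTHDF2 RIPs. The RNA of the signal recognition particle, 7SL, which docks ribosomes at the endoplasmic reticulum, is counted at several genes and pseudogenes. RN7SL2 stood at 990, 402 and 451 CPM in the RIPs and at 15010, 50666 and 50040 in the inputs, a log2 fold change of -5.97 ± 0.63 (adjusted p = 5.52e-08, edgeR; -6.19 without the 2 libraries). Input replicate 1 held far less than the other inputs, and still lay far above every RIP. RN7SL3 (-5.97), RN7SL1 (-5.67) and the pseudogenes RN7SL4P (-6.47) and RN7SL5P (-6.46) share its reads and are no separate results.

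Over all 1040 small structured RNA genes tested of 3399 in the table, 78 were lower and 7 higher (7.5 and 0.673 percent, both under the 15.4 and 8.66 percent of all genes; median -0.15, beside -0.11 for all genes; 0.05 by total counts). Without the 2 libraries 93 were lower and 21 higher. Their summed share was 6.61, 14.8 and 14.03 percent of the inputs and 0.637, 0.415 and 1.53 percent of the RIPs, with no overlap. By gene type, snRNA had 39 lower and 4 higher of 423, snoRNA 15 and 4 of 388, and miRNA genes 22 lower and 21 higher of 688. MIR3648-1 itself was not called (-0.41 ± 0.94, adjusted p = 0.827, edgeR), and it stood at 16750 CPM in RIP replicate 3 and 28064 in input replicate 1 but at 655 to 3385 in the other 4 libraries. Without those 2 libraries its log2 fold change was 1.33 and still not called (adjusted p = 0.282, edgeR).

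Long noncoding RNAs had 353 higher and 692 lower of 7995 (median -0.07), shares under those of protein-coding genes (2283 and 3509 of 15966). Among genes that do not code for protein, those higher by the naming rule were CCDC144NL-AS1 (1.19 ± 0.16), KIF1C-AS1 (1.16 ± 0.29), STARD7-AS1 (1.09 ± 0.22) and the unprocessed pseudogene PNMA6B (1.20 ± 0.32). The first 3 are named as antisense partners of other genes, and counting ignored strand, so their reads cannot be told apart from those of overlapping partners. PNMA6B has near copies. Of 10 nuclear long noncoding RNAs, TUG1 was higher (0.56 ± 0.16; 0.36 and not called without the 2 libraries) and CRNDE (-1.28 ± 0.27) and OIP5-AS1 (-0.47 ± 0.16, but 0.18 under mitochondrial scaling) were lower. MALAT1, abundant in nuclear speckles, stood at 2636, 3102 and 1082 CPM in the RIPs and at 1248, 1541 and 1630 in the inputs, which overlap, and was not called (0.63 ± 0.44, adjusted p = 0.367, edgeR). Olfactory receptor genes, which these cells are not known to use, had 0 of 33 called (median 0.56), and their summed share lay at most at 0.00151 percent, in RIP replicate 3. Processed pseudogenes had 403 lower and 28 higher of 3407.

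Above 1 kb, recovery rose with the summed exon length of a gene. Among protein-coding genes with under 1 kb of summed exons, 4.15 percent were higher and 31.5 percent lower (n = 482, median -0.46). At 1 to 2 kb the shares were 3.14 and 36.8 percent (n = 1400), at 2 to 4 kb 7.20 and 30.1 percent (n = 4319) and at 4 to 8 kb 15.4 and 19.1 percent (n = 6342). At 8 kb and over the order was turned round, with 27.1 percent higher and 9.55 percent lower (n = 3423, median 0.16). The step was there without the 2 libraries as well, with 17 higher and 127 lower in the shortest class and 945 and 323 in the longest. Across the 15966 genes Spearman's rho between log2 exon length and log2 fold change was 0.32 (0.26 without the 2 libraries), a description over genes that share libraries and are no replicates. Mean log2 CPM had a rho of 0.23 with the log2 fold change, and the parts of length and level were not separated. Among the 8822 genes at a mean log2 CPM of 4 or more the rho with length was 0.35.

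**Figure D4:**
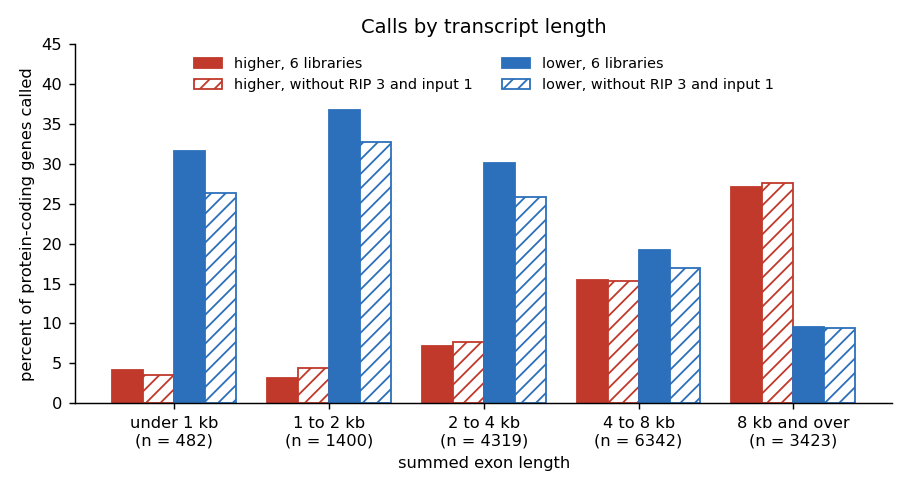
Percent of protein-coding genes called higher (red) or lower (blue) in YTHDF2 RIP (y axis, from 0) by summed exon length (x axis, with the number of genes in each class). Filled bars use all 6 libraries and hatched bars leave out RIP replicate 3 and input replicate 1. The higher share climbs from 4.15 percent under 1 kb to 27.1 percent at 8 kb and over, and the lower share drops from 31.5 to 9.55 percent.

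Over the same 15966 genes Spearman's rho between exon number and log2 fold change was 0.21, again a description, and 25.1 percent of the 3017 genes with over 20 merged exons were higher and 6.53 percent lower. Within length classes the order by exon number was not a single one. Of genes at 4 to 8 kb, the 85 with 1 merged exon had 26 higher and 5 lower (median 0.36), those with 6 to 10 exons 245 higher and 425 lower of 1723 (median -0.14), and those with over 10 exons 569 and 592 of 3686 (median -0.04). At 2 to 4 kb, 1-exon genes had 33 higher and 25 lower of 187 (median 0.08) beside 92 and 563 of 1601 with 6 to 10 exons (median -0.38). At 8 kb and over, genes with over 10 exons had 807 higher and 217 lower of 2848 (median 0.18), beside 76 and 88 of 428 with 6 to 10 exons (median -0.02) and 43 and 21 of 139 with 2 to 5 (median 0.19); 8 genes there had a single exon. Under 2 kb, 51 of 275 genes with 1 exon were lower and 20 higher, beside 359 and 29 of 942 with 2 to 5 exons. These differences were not tested.

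The authors' deposited editing table gave a second reading of the same cells, namely which genes held edited sites. Editing by the fusion and by the cells' own ADAR enzymes was not separated here. The table lists edited sites per gene with a score pooled over replicates, so no replicate error can be given; its adjusted p-values are the authors' own. A gene's editing level is given here as a percent per site, its score spread evenly over its sites. Odds ratios computed from these levels matched the authors' own ratio within 1e-06 for 7256 of 7263 genes. The comparison with editing covers 15449 of the 15966 protein-coding genes tested. Among these, 87.6 percent of the 2226 called higher in YTHDF2 RIP had edited sites in the authors' deposited table. The share was 40.3 percent of the 3354 called lower and 45.7 percent of the 9869 not called. At a mean log2 CPM of 4 or more these shares were 92.2, 54.9 and 79.0 percent. The density of sites followed the same order, with a median of 2.61 sites per kb of exon in higher genes, 0.676 in lower genes and 1.19 in the others at that level. At that level the median exon length was 7310 bases for higher and 4126 for lower genes, and the part of length and depth was not tested.

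The editing level was higher in YTHDF2 RIP than in input for most genes, whether or not the gene was enriched. The median level by the authors' deposited scores was 2.69 percent in input and 3.64 percent in the RIP over 7249 genes, with a natural log odds ratio of 0.298 and 80.1 percent of genes above 0. Genes called higher (0.294), lower (0.306) and neither (0.300) had nearly the same median ratio. In the authors' deposited table the adjusted p was under 0.05 for 128 genes, 126 of them edited more in the RIP. Among named mRNAs, WDR6 had 89 sites and ZNF778 had 126 in the authors' deposited table, at 3.45 and 2.71 percent in input and 4.85 and 3.73 percent in the RIP. RPS13 and TXN had 1 site each. HNRNPM and COPRS, both strongly enriched, also had 1 site each, at 0.514 and 0.839 percent in input, and HNRNPM was at 0.417 percent in the RIP.

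The same RIP in the other lines asked whether enrichment with YTHDF2 depended on which fusion the cells made. These comparisons use their own inputs and RIPs, and so share no library with the one above. In YTHDF2-ADAR cells 20.3 percent of genes were called and in YTHDF3-ADAR cells 18.9 percent, with splits of 3234 higher to 3232 lower and 2860 to 3162. Of the 2757 genes higher in YTHDF1-ADAR cells, 82.3 percent were also higher in YTHDF2-ADAR cells and 72.9 percent in YTHDF3-ADAR cells, which are 70.1 and 70.3 percent of the genes higher there. On the lower side 55.99 and 54.8 percent were lower again, or 85.2 and 85.3 percent of the genes lower in the other lines. In all 3 lines 1900 genes were higher and 2279 lower. Of the genes called higher here, at most 1 was called lower in each other line, and the same held for those called lower.

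Named mRNAs kept their direction. Of the 14 highest, 14 were called higher in YTHDF2-ADAR cells and 13 in YTHDF3-ADAR cells, and all 14 lowest were called lower in both. PSMD2 lay at 1.46 and 1.08 in the other 2 lines against 1.87 here, and RPS21 at -2.77 and -3.03 against -3.77. The genes were chosen as extremes of YTHDF1-ADAR cells, so their sizes in the lines are not compared. Ribosomal proteins had list medians of -1.44 and -1.34 in the other lines, and chromatin coregulators 0.42 and 0.52.

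A test of the difference between YTHDF1-ADAR cells and the mean of the other lines called 1 gene of 31849 (0.00314 percent, edgeR), with 1869 at an unadjusted p under 0.05 (5.87 percent) and 2 called by DESeq2. That gene was SEC14L1, a lipid-binding protein (ENSG00000129657, chr17:77088749-77217101). Its span overlaps that of SNHG20, and reads in overlapping genes were counted at each, so its values are uncertain. In YTHDF1-ADAR cells SEC14L1 stood at 121, 116 and 95.2 CPM in the RIPs and at 111, 98.5 and 119 in the inputs, with no difference beyond the spread (0.01 ± 0.19). In YTHDF2-ADAR cells it stood at 182, 156 and 162 CPM in the RIPs against 49.7, 41.7 and 79.0 in the inputs (1.55 ± 0.19), and in YTHDF3-ADAR cells at 153, 122.9 and 133 against 56.8, 50.05 and 76.6 (1.16 ± 0.19). The inputs of YTHDF1-ADAR cells lay above all other inputs, so the difference is one of input as well as of RIP. Without the 2 libraries it was -1.20 (adjusted p = 0.189, edgeR), no longer past the threshold. The median standard error of this test was 0.37, beside 0.30 for RIP against input.

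**Figure D5:**
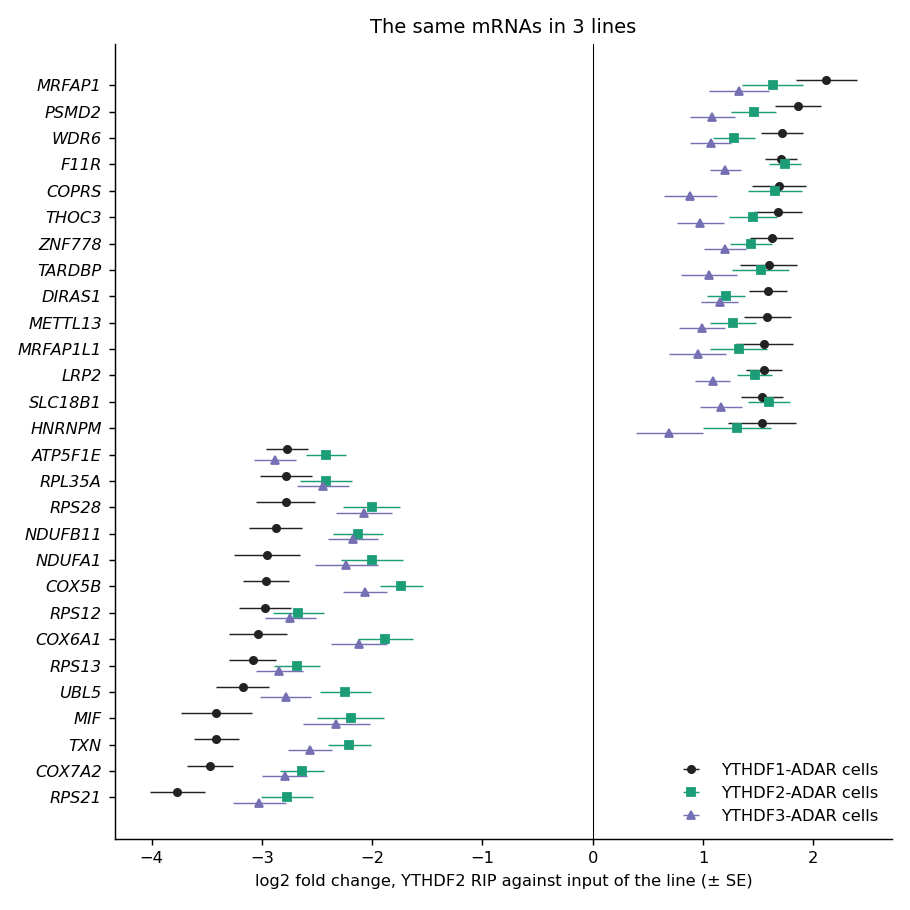
Log2 fold change of YTHDF2 RIP against input of the same line (x axis, bars are ± 1 standard error of the model) for the 28 named mRNAs (y axis) in YTHDF1-ADAR (circles), YTHDF2-ADAR (squares) and YTHDF3-ADAR cells (triangles), 3 RIP and 3 input libraries each. Every mRNA lies on the same side of 0 in the 3 lines, RPS21 at -3.77, -2.77 and -3.03.

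YTHDF2 RIP was last set directly against the RIPs of its relatives in the same cells, a comparison that needs no input. Against YTHDF1 RIP, 5997 genes were higher (18.8 percent) and 6450 lower (20.3 percent). Against YTHDF3 RIP, 3403 were higher (10.7 percent) and 2711 lower (8.51 percent). The antibodies differ, and how well each recovers its protein cannot be told apart from which RNAs the proteins hold.

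Several membrane proteins lay on the YTHDF2 side of the first comparison. MFSD1, a lysosomal carrier, was higher than in YTHDF1 RIP by 3.33 ± 0.29, SERINC1, a lipid-handling membrane protein, by 3.32 ± 0.20, and the signal peptidase subunit SEC11A by 3.28 ± 0.25. The polyamine enzyme ODC1 (2.99 ± 0.28), SLC18B1 (2.96 ± 0.20) and THOC3 (2.89 ± 0.23) followed. For these 6 the YTHDF1 RIP lay under input (-2.37 to -1.21) and the YTHDF2 RIP above it (0.91 to 1.68); both are set against the same inputs. Without RIP replicate 3 and input replicate 1 the YTHDF2 values were smaller, at 0.35 to 1.30, and SEC11A, whose RIP and input values overlap, was no longer called (0.35, adjusted p = 0.285, edgeR), while MFSD1 lay at 0.91. Of the 50 secretory pathway genes 32 were higher and 4 lower than in YTHDF1 RIP (median 0.90 beside 0.13 for all genes), and of 17 glycolysis genes 14 were higher and 0 lower (median 1.00).

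On the YTHDF1 side lay GEMIN7 (-3.54 ± 0.23), a subunit of the SMN complex that overlaps GEMIN7-AS1 (-3.46 ± 0.21) and cannot be told apart from it, the splicing factor SF3B5 (-3.34 ± 0.26) and the succinate dehydrogenase assembly factor SDHAF2 (-3.14 ± 0.19). ZNF genes had 14 higher and 353 lower of 453 (median -1.05), KLF, SOX, FOX and HOX factors 3 and 75 of 107 (median -0.91), and chromatin coregulators 3 and 35 of 53 (median -0.57). The last list was thus higher than input with YTHDF2, yet lower than with YTHDF1. Of the 13 mRNAs encoded in mitochondrial DNA, 10 were lower and 0 higher than in YTHDF1 RIP (median -1.61). Against input, 0 of them were called with YTHDF2, and the reason was not tested. YTHDF1 mRNA itself was lower than in YTHDF1 RIP (-1.50 ± 0.19), as were YTHDF3 (-1.70 ± 0.17), ADARB1 (-1.67 ± 0.20), SON (-1.11 ± 0.21) and CREBBP (-1.12 ± 0.18).

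Against YTHDF3 RIP, fewer genes were called than against YTHDF1 RIP. Oxidative phosphorylation genes had 41 higher and 2 lower of 81 (median 0.54 beside 0.12 for all genes), ribosomal protein genes 29 and 1 of 86 (median 0.46) and histone genes 31 and 0 of 55 (median 1.06), 3 families that were low in YTHDF2 RIP against input. Lower with YTHDF2 were UCP2, a mitochondrial carrier (-2.91 ± 0.21), APOOL, a protein of the inner mitochondrial membrane (-2.54 ± 0.18), AP1S3, a clathrin adaptor subunit (-2.49 ± 0.17), and MYADM (-2.46 ± 0.20). UCP2 was below input with YTHDF2 (-1.29 ± 0.20) and above the same input with YTHDF3 (1.62). The 6 highest by rule carry the names of copies of 5.8S ribosomal RNA, such as RNA5-8SN4 (4.51 ± 0.90), which stood at 31.8, 114 and 228 CPM over the 3 YTHDF2 RIPs and rests on replicates that differ widely.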

How the data were processed

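Total RNA libraries, depleted of rRNA and made with a directional kit, were sequenced from 36 RIP and input samples. Gene counts were made by the authors with STAR 2.7.7 and featureCounts 2.0.1 on GRCh38, per the submitters' processing notes. Per the file headers, reads that fit several places or overlapping genes were counted at each, duplicates were left out and no strand option was set. Copies, overlapping genes and antisense partners therefore share counts, and MRFAP1L1, SEC14L1, ribosomal protein, histone, 7SL, HSPA1 and MIR3648 values are uncertain for that reason. The table held 60675 Ensembl genes and 1 other row, which was left out. Symbols came from the authors' deposited tables (40818) or the reference table (1276), and 18581 genes had none. No column was left unused (0).

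Per gene, the DESeq2 table deposited by the authors holds a mean normalised signal, a log2 fold change and an adjusted p-value for YTHDF2 RIP; the lines that entered it are not given in the sources used here. All 36 main named genes had the same sign and a call there. Both results come from the same series, and the genes were picked as extremes, so this is no independent check. The authors' deposited editing table gives an editing score per gene pooled over replicates, a natural log odds ratio and an adjusted p-value.

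Tests were run in R 4.3.3 with edgeR 4.0.16 (filterByExpr, TMM, robust quasi-likelihood fit, limma 3.58.1) on 36 libraries in 12 groups, with Benjamini-Hochberg adjustment and a threshold of 0.05. DESeq2 1.42.0, other scalings and filters, fewer libraries, a replicate block and leaving out each library were alternatives. On simulated counts of 31849 genes for YTHDF2 RIP against input, the fit recovered 64 and 58 percent of genes changed by +1 and -1 on the log2 scale and 96 percent of those changed by +2 or -2, with 12 false calls. The simulation changed 50 genes at each size, as many up as down, among genes over 1 CPM on average. The real comparison has far more calls, and the simulation did not copy the profile of RIP replicate 3 and input replicate 1. These rates need not hold for the real data. Totals of 15921450 to 30300222 counts a library set the precision. The labels do not say whether replicate numbers pair RIP and input. Same-numbered libraries deviated with r of -0.29, 0.21 and -0.12 over genes. RIP replicate 3 had an r of 0.28 with input replicate 1 and -0.28 with input replicate 2. Such values over 3 libraries a group cannot decide whether the libraries are paired.

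Genes were named by a rule: the 14 highest and lowest protein-coding and 4 highest and lowest other genes that were called, had a mean log2 CPM of at least 4 and non-overlapping groups, and were called without RIP replicate 3 and input replicate 1. The 6 highest and lowest of the other comparisons, 2 to 4 members of smallest p per list and a fixed set around YTHDF and ADAR were added. The compared libraries, gene lists and rules were chosen with earlier results of these data known. Some results are not reported here.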

Additional observations from a re-analysis of the deposited data

Results flagged for a closer look

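The difference in YTHDF2 RIP enrichment between YTHDF1-ADAR cells and the mean of the other 2 lines was past the threshold for SEC14L1, at -1.34 ± 0.23 on the log2 scale (adjusted p = 0.0382, edgeR). SEC14L1 was enriched in 3 of 3 RIPs over every input in YTHDF2-ADAR and YTHDF3-ADAR cells and not in YTHDF1-ADAR cells. Against single lines, the difference was called against YTHDF2-ADAR (-1.54, adjusted p = 0.0429, edgeR) and not against YTHDF3-ADAR (-1.14, adjusted p = 0.921, edgeR). The gene overlaps SNHG20, so its counts are uncertain, and it was singled out after its values were seen.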

How the results depend on the processing

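Scaling moved the counts most. Against the reported 2757 higher and 4919 lower genes, total counts gave 4422 and 3248, the upper quartile 5088 and 3189, and scaling to the mitochondrial mRNAs 721 and 365 with a median gene at 0.40. Fitting the 6 compared libraries alone gave 1593 and 2266, and the 12 libraries of the line gave 2773 lower. Total counts without RIP replicate 3 and input replicate 1, chosen after seeing the data, gave 5052 and 3002. DESeq2 called 4025 and 4167. With its size factors in edgeR the counts were 3748 and 3992, 48.4 percent of calls being higher beside 35.9 percent as reported. Leaving out 1 library gave 2362 to 3563 higher and 2939 to 5169 lower genes; the lower count moved by over 1.5 times without input replicate 2 (3264) or 3 (2939). With a replicate block, 2622 genes were higher and 4672 lower, and 2397 were lower when the block was fitted in the 12 libraries of the line (added after seeing the data). Of the called named genes, OIP5-AS1 changed sign, to 0.18 under mitochondrial scaling, and no other did so under that scaling, DESeq2's size factors, total counts or without the 2 libraries; genes not called, such as PPP2R3B (-0.34, and 0.06 without the 2 libraries), are not counted. Of 176 named results, 168 kept direction and side of the threshold without the 2 libraries, and 110 under mitochondrial scaling.

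The difference between lines, 1 gene, was 0 with DESeq2's size factors, the upper quartile, mitochondrial scaling, the replicate block, the non-robust fit, the compared libraries alone, a minimum of 1 CPM, without 6 YTHDF1 RIPs of other lines, and without the 2 libraries. It was 2 with DESeq2, 116 with no filter, and 0 to 6 when 1 library was left out, 6 being without YTHDF2 RIP replicate 3. Against YTHDF1 RIP, mitochondrial scaling gave 19956 genes in place of 12447. Against YTHDF3 RIP, the reported 6114 became 367 under mitochondrial scaling, 3623 in the compared libraries alone, 3267 in the 12 libraries, and 3973 to 5698 without 1 library, 3973 being without YTHDF3 RIP replicate 3. The causes were not tested. The filter on low counts left 28826 genes untested.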
